A study of Mus musculus with 50 samples.

Results

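Guidance cues and their receptors steer growing axons, and many of them stay expressed in the adult striatum, where they act at synapses and on spine shape. The genes described here are the ligands and receptors of the 4 classical guidance systems, chosen by symbol alone: semaphorins of classes 3 to 7 with the plexins and neuropilins, ephrins with the Eph receptors, Slits with the Robo receptors, and netrins with Dcc and the Unc5 receptors. The rule took 70 of the 24552 gene symbols in the count table, namely 35 ligand genes, 34 receptor genes and *Plxna4os1*, a noncoding RNA antisense to a plexin gene that the symbol pattern also caught. The rule itself used no measured value, though it was set with earlier results of these data known.

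The libraries came from the nucleus accumbens (NAc) of mice carrying RiboTag (RT), an allele that puts an HA tag on the ribosomal protein Rpl22 in cells that express Cre, so that an anti-HA immunoprecipitate (IP) holds the ribosome-bound RNA of those cells. Cre was driven by dopamine receptor BAC transgenes, D1-Cre (line FK150) or D2-Cre (line ER44), on a C57BL/6 background, which target the D1 and the D2 medium spiny neurons (MSNs) but tag any other cell of the tissue punch in which the transgene is active. Each library pooled 2 mice aged 8 to 12 weeks that were undefeated controls (Con) or had gone through chronic social defeat stress (CSDS) for up to 10 days and were then sorted by social interaction into resilient (Res) or susceptible (Sus). There were 13 D1 IPs (4 Con, 4 Res, 5 Sus), 15 D2 IPs (5 in each group) and 18 inputs (3 for each line and stress group), an input being the RNA left in the supernatant of the same homogenate. A further 4 D1 IPs, labelled Sirt1-KO, came from undefeated male RT; Sirt1-floxed; D1-Cre mice whose age was not given, and were compared with the 4 D1 Con IPs.

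Between 18384265 and 31009626 reads were counted to genes in a library of the main set, and between 22174187 and 31785984 in a Sirt1-KO library. All 4 D1-MSN markers (*Drd1*, *Chrm4*, *Tac1*, *Pdyn*) were higher in the D1 IPs and all 4 D2-MSN markers (*Drd2*, *Adora2a*, *Gpr6*, *Penk*) in the D2 IPs. The IPs were low in glial and vascular RNA: the summed level of 6 astrocyte markers was 37.9 to 95.8 CPM (read counts scaled to the size of the library) in IPs and 791 to 1010 CPM in inputs. Neither line was free of other neurons. The summed level of 6 cortical excitatory neuron markers ran from 402 to 1430 CPM (median 755) in the D1 IPs and from 21.9 to 318 CPM (median 200) in the D2 IPs, and all 6 were called higher in D1. The summed level of 5 cholinergic interneuron markers was 7.73 to 30.6 CPM in the D1 IPs and 62.7 to 135 CPM in the D2 IPs. The D1 IPs also held D2-MSN RNA: the summed D2-MSN markers were 2060 to 3470 CPM in the D1 IPs, 776 to 1320 CPM in the D1 inputs and 5650 to 8000 CPM in the D2 IPs, and 3 of the 4 (*Adora2a*, *Gpr6*, *Penk*) were called higher in D1 IP than in D1 input. The summed D1-MSN markers were 396 to 638 CPM in the D2 IPs, 465 to 597 CPM in the D2 inputs and 1100 to 1550 CPM in the D1 IPs. The part of these other neurons in the D1 vs D2 values given below was not tested. *Sirt1* itself did not differ between the libraries labelled Sirt1-KO and D1 Con beyond their spread, as set out at the end.

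As background, semaphorins are secreted or membrane-bound cues that bind plexins, with neuropilins as co-receptors for most of class 3. Plexins act on small GTPases and the cytoskeleton. Ephrins are tethered to the membrane, by a lipid anchor in class A and by a transmembrane segment in class B, and their Eph receptors are tyrosine kinases, so that signals can run in both cells at a contact. Slits are secreted repellents read by Robo receptors. Netrins attract axons through Dcc and repel them through Unc5 receptors. In the striatum these systems are known for the layout of corticostriatal and striatonigral projections and for the choice of synaptic partners.

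The genes with the clearest difference between the D1 and D2 IPs in each direction whose promoters could be shown were *Ephb3* and *Sema5b*. Their promoters (RefSeq, GRCm38.p6, 250 bases before to 50 after the annotated start) are given so that the sequences can be read beside the levels below. In the GENCODE annotation *Ephb3* lies at chr16:21204755-21223305 and *Sema5b* at chr16:35541145-35664732, both on the plus strand, and the RefSeq starts on which the windows are set differ from these GENCODE starts. Capitals mark GC boxes (GGGCGG, searched on both strands).
Ephb3 promoter, chr16:21204545-21204844, plus strand: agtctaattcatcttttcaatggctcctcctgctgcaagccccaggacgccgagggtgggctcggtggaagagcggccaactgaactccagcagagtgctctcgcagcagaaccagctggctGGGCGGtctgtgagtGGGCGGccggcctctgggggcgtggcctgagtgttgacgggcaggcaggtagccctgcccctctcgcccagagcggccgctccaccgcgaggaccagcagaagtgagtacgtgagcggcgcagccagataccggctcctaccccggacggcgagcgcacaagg
Sema5b promoter, chr16:35541112-35541411, plus strand: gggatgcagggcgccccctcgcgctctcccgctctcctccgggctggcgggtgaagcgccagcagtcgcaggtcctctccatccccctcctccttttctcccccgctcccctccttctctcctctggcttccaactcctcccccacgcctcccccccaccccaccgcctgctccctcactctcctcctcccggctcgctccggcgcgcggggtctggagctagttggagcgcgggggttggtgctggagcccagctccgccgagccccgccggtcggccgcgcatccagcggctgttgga
Both windows were rich in CpG, with 23 CpGs and 66.7% GC for *Ephb3* and 27 CpGs and 73% GC for *Sema5b*, against a median of 7 CpGs over 32817 mouse promoters of the same length. The *Ephb3* window held the GC box, which 35.6% of all promoters hold, and the core of the cAMP response element (TGACG, both strands), which 20.8% hold. Neither window held the full element (TGACGTCA, in 1.79% of promoters, each of which also holds the core), and the *Sema5b* window held none of these 3 motifs.

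Levels were compared between genes as CPM per kilobase of exon. The 10 highest members in the IPs were the class B ephrin ligands *Efnb3* (65.4 CPM per kb, mean of 28 IPs) and *Efnb2* (27.1), the semaphorins *Sema6b* (46.2) and *Sema7a* (21.6, a lipid-anchored semaphorin), the ephrin receptor *Epha4* (43.4), the netrin repulsion receptor *Unc5a* (21.6), the plexins *Plxnd1* (18.01), *Plxna2* (15.2) and *Plxna4* (15.1), and *Ephb6* (15.02), an Eph receptor whose kinase domain is inactive. The SD over the 28 IPs of both lines was 7.45 for *Efnb3*, 2.82 for *Sema6b* and 3.91 for *Epha4*. The means of *Sema6b* and *Epha4* lay within this spread of each other, while *Efnb3* lay above both. This SD holds the gap between the lines and leaves out that the genes were read in the same libraries. It is therefore no test of a difference between genes. The means of *Sema7a* (SD 4.86) and *Unc5a* (SD 2.77) also lay within their spread of each other. The order moved between the lines: *Sema6b* (48.1) stood above *Epha4* (41.0) in the D1 IPs and at 44.5 against 45.5 in the D2 IPs, and in the D2 IPs *Epha7* (14.3) and *Efna3* (13.3) stood above *Ephb6* (13.1). Within families the range was wide, from 65.4 to 5.32 CPM per kb over the 3 ephrin B genes and from 8.51 (*Robo2*) to 0.0517 (*Robo4*) over the Robo receptors.

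**Figure D1:**
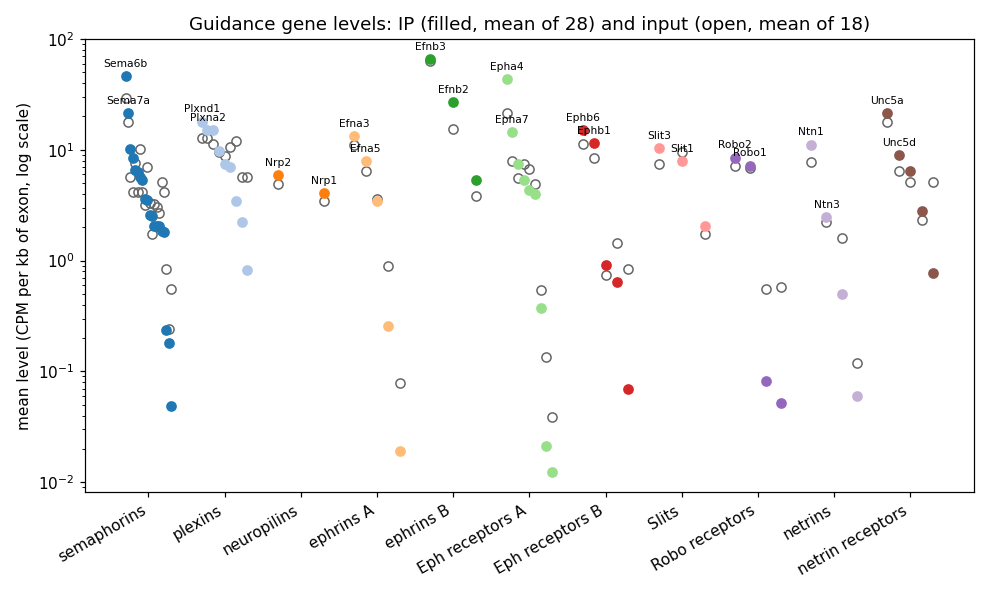
Mean level of each member in CPM per kb of exon (log scale) by family, with filled points for the mean of 28 IPs and open points for the mean of 18 inputs and the highest members of each family named. *Efnb3*, *Sema6b* and *Epha4* stand highest, and the genes whose open point lies far above the filled one, such as *Robo4* and *Ephb4*, are low in the IPs.

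At the other end, 3 members were too low to test in any fit. *Efna4*, an ephrin A, had at most 4 reads in an IP and 8 in an input. *Epha1* had at most 5 reads in an IP and 10 in an input, and *Plxna4os1* at most 2 and 9. A further 3 were too low to test among the IPs: *Epha2* with 0 to 11 reads per IP, *Ntn5* with 0 to 15 and *Sema3g* with 1 to 11. *Ntn5* was also too low to test among the inputs by themselves. The counts therefore do not show whether these genes are absent from MSNs, only that they were not detectable above a few reads per library. The tests below cover 67 members when inputs are included, 64 among the IPs alone, 66 among the inputs alone and 62 in the comparison with the Sirt1-KO libraries.

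IP and input were compared first, to show which guidance genes the tagged neurons hold more or less of than the tissue around them. A gene was called when the adjusted p of the edgeR quasi-likelihood test was under 0.05 and the fold change over 1.5. In the D1 line 7 of 67 members were called higher in the IP and 22 lower, beside 13.7% and 29.3% of all 15404 genes tested. In the D2 line 11 were called higher and 21 lower, beside 12.8% and 30.8% of all genes. With no limit on the fold, 60 members passed in each line, where 81.8% (D1) and 82.7% (D2) of all genes did, and the median log2 fold change of the members was -0.00 in D1 and -0.05 in D2, against -0.04 and -0.08 over all genes. *Epha2*, *Ntn5* and *Sema3g* passed the filter on low counts only through the inputs, the group where they were higher. Their calls are among the counts above, *Epha2* and *Sema3g* in both lines and *Ntn5* in D2. These calls support nothing, and these genes are given as reads alone. The share of members called was near that of all genes, and single members lay far to each side. In bulk IPs, fewer tagged cells that express a gene and less RNA per cell cannot be told apart.

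*Epha4*, *Epha7*, *Efnb2*, *Sema3e*, *Sema4f* and *Sema6b* were called higher in the IP in both lines. *Epha4*, a receptor for ephrins of both classes, ran from 292 to 379 CPM (median 326) in the D1 IPs and from 161 to 186 (median 176) in the D1 inputs. In the D2 line it ran from 325 to 402 CPM (median 374) in the IPs and from 148 to 184 (median 169) in the inputs. Every IP thus lay above every input of its line, and the log2 fold change was 0.91 ± 0.05 (SE, adjusted p = 3.55e-21) in D1 and 1.11 ± 0.05 (adjusted p = 2.2e-24) in D2. *Epha7*, a receptor for ephrin A ligands, followed with 0.92 ± 0.06 in D1 and 0.83 ± 0.06 in D2. *Efnb2*, an ephrin B ligand, was higher by 0.73 ± 0.05 in D1 and 0.89 ± 0.04 in D2. Among semaphorins, *Sema3e*, the secreted ligand of *Plxnd1*, ran from 57.4 to 85.0 CPM in the D1 IPs against 31.9 to 44.6 in the D1 inputs, and from 66.9 to 100 CPM in the D2 IPs against 34.9 to 42.8 in the D2 inputs. Its log2 fold changes were 0.88 ± 0.07 and 1.11 ± 0.07. *Sema4f*, a membrane-bound class 4 semaphorin, was higher by 0.94 ± 0.04 in D1 and 0.75 ± 0.04 in D2, and *Sema6b*, a transmembrane ligand of class A plexins, by 0.72 ± 0.04 and 0.61 ± 0.03.

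Some members passed the fold limit in 1 line only, which by itself does not show that the lines differ. *Epha5*, an ephrin A receptor, was called higher in the D1 line (0.63 ± 0.06). The secreted semaphorins *Sema3f* (0.69 ± 0.08) and *Sema3a* (0.61 ± 0.07), the repellent *Slit3* (0.64 ± 0.09), the receptor *Unc5d* (0.62 ± 0.07) and the ligand *Ntn1* (0.59 ± 0.06) were called in the D2 line. With the pool of mice as a block, since IP and input came from the same homogenate, *Slit3* fell to 0.53 in the D2 line, under the fold limit (adjusted p = 2.22e-07). *Ntn1*, just over the limit, was not called with this block, with RLE factors or with DESeq2.

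Other members were far lower in the IP than in the input of both lines. *Robo4*, a Robo receptor best known from endothelium, had 1 to 16 reads in a D1 IP and 51 to 93 in a D1 input, and 2 to 15 against 49 to 102 in the D2 line. Its log2 fold change was -4.04 ± 0.26 in D1 and -3.16 ± 0.22 in D2. *Ephb4*, an ephrin B receptor of veins, had 2 to 11 reads in a D1 IP against 74 to 120 in a D1 input, with log2 fold changes of -3.77 ± 0.18 in D1 and -3.58 ± 0.17 in D2. *Sema3g*, a secreted semaphorin expressed by arterial endothelium, had 1 to 11 reads in an IP and 34 to 84 in an input. For *Robo4* and *Ephb4* every IP lay below every input. The summed level of 5 endothelial markers moved the same way, from 63.0 to 92.0 CPM in the inputs to 3.15 to 9.59 CPM in the IPs.

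*Plxnb3*, a plexin of oligodendrocytes, ran from 2.28 to 7.53 CPM (median 5.52) in the D1 IPs and from 30.9 to 45.3 (median 37.8) in the D1 inputs, a log2 fold change of -2.92 ± 0.15, and was -2.69 ± 0.14 in D2. *Plxnb1*, a receptor for *Sema4d*, ran from 24.1 to 40.8 CPM in the D1 IPs and from 106 to 130 in the D1 inputs (-1.94 ± 0.08 in D1, -1.73 ± 0.08 in D2). *Sema4d* itself was lower in the IP, at -0.90 ± 0.05 in D1 and -1.05 ± 0.05 in D2, so that ligand and receptor of this pair lay on the same side. The summed level of 6 oligodendrocyte markers was 403 to 786 CPM in the IPs and 3460 to 5400 CPM in the inputs. The netrin receptor *Unc5b* was lower, at -2.53 ± 0.13 in D1 and -2.92 ± 0.12 in D2, and *Robo3*, a divergent Robo receptor, was at -3.00 ± 0.20 and -2.60 ± 0.19. *Epha2* had 0 to 11 reads in an IP and 6 to 33 in an input. The part of glial and vascular RNA in these values was not tested.

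**Figure D2:**
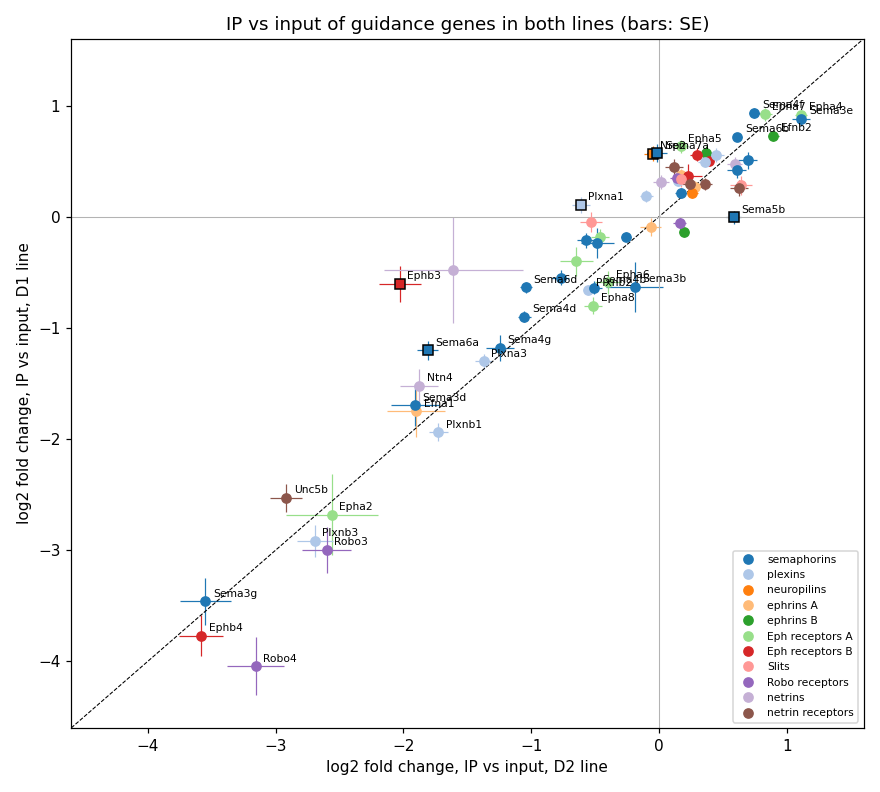
Log2 fold change of IP against input in the D2 line (x axis) and the D1 line (y axis) for the 67 tested members, with SE as bars, colour for family, a dashed line of equality and black-edged squares for the 6 members whose ratio differed between lines. The lower left holds *Robo4* and *Ephb4*, the upper right *Epha4*, *Sema3e* and *Efnb2*, and *Ephb3* lies farthest above the dashed line. *Epha2*, *Ntn5* and *Sema3g* are drawn but passed the filter only through the inputs, so their positions support nothing.

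Several textbook pairs were moderately higher in the IPs of both lines without reaching the fold limit in both. For the *Sema3a* receptor complex, the co-receptor *Nrp1* was higher by 0.21 ± 0.04 in D1 and 0.26 ± 0.04 in D2 and the signalling subunit *Plxna4* by 0.49 ± 0.05 and 0.36 ± 0.05, all with adjusted p under 0.05. *Plxnd1*, which binds *Sema3e*, was higher by 0.55 ± 0.06 in D1 and 0.45 ± 0.06 in D2. The netrin receptor *Dcc* was higher by 0.29 ± 0.05 and 0.36 ± 0.05. In the Slit system *Slit2* (0.34 ± 0.07 in D1, 0.17 ± 0.07 in D2) and *Robo2* (0.34 ± 0.06 and 0.14 ± 0.06) were higher in both lines, while *Slit1* was lower in D2 (-0.53 ± 0.09, adjusted p = 5.79e-07) and near 0 in D1 (-0.05 ± 0.09, adjusted p = 0.601). *Robo1* passed the test in D2 (0.16 ± 0.05) and not in D1 (-0.06 ± 0.06, adjusted p = 0.352). *Efna5*, an ephrin A that binds *Epha4* and *Epha5*, was higher by 0.38 ± 0.05 in D1 and 0.17 ± 0.05 in D2. *Ephb1* was higher by 0.50 ± 0.04 and 0.39 ± 0.04, and *Ephb2* by 0.36 ± 0.11 and 0.23 ± 0.11. *Efnb3*, the highest member of all, was lower in the IP in D1 (-0.14 ± 0.04, adjusted p = 0.00096) and higher in D2 (0.19 ± 0.04, adjusted p = 1.17e-05).

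Whether the IP to input ratio itself differed between the lines was tested as an interaction. Of 67 members, 5 had a higher ratio in D1 and 1 a lower ratio, beside 4.93% and 2.65% of all genes. The higher ones were the receptors *Ephb3* (difference of the log2 ratios 1.43 ± 0.23, adjusted p = 1.45e-05), *Plxna1* (0.72 ± 0.10, adjusted p = 6.8e-07) and *Nrp2* (0.62 ± 0.10, adjusted p = 6.3e-06), and the semaphorins *Sema6a* (0.61 ± 0.12, adjusted p = 0.000187) and *Sema7a* (0.59 ± 0.12, adjusted p = 0.000195). The lower one was *Sema5b* (-0.59 ± 0.08, adjusted p = 5.13e-07). With the pool of mice as a block, *Sema5b* (-0.57) and *Sema6a* (0.58) moved just under the fold limit with adjusted p of 4.73e-06 and 0.00311. *Sema7a* lay at the limit itself: its call was lost with RLE factors (0.57), DESeq2 (0.56) and no filter on low counts (0.58), and in 36 of 46 fits that left out 1 library. *Sema6a* lost its call in 18 of 46, *Nrp2* in 7 and *Sema5b* in 4. The count was 3 in the control libraries alone, beside 400 of 14922 genes. It was also 3 without any of D1 Con IP replicate 2, D1 Res IP replicate 1 or D1 Con input replicate 1. *Ephb3* and *Plxna1* were called in every alternative tried.

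The direct comparison of the IPs asks which guidance genes the 2 MSN classes hold at different levels. Over the 3 stress groups, 2 of 64 members were called higher in the D1 IPs, *Ephb3* and *Plxna1*, and 2 lower, *Sema5b* and *Robo4*, beside 4.93% and 2.69% of all 14224 genes tested. The *Robo4* call supports nothing, as set out with its values below. With no limit on the fold, 35 members passed the test, 22 higher in D1 and 13 higher in D2, where 40.6% of all genes passed. The median log2 fold change was 0.08 over the members and -0.02 over all genes. Both ligands (16 of 32) and receptors (19 of 32) were among the 35.

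*Ephb3*, a receptor tyrosine kinase for ephrin B ligands, had 3.10, 5.95, 5.01 and 6.82 CPM in the 4 D1 Con IPs, 6.57, 7.56, 6.61 and 5.03 in the D1 Res IPs and 5.28, 6.30, 12.9, 7.68 and 5.20 in the D1 Sus IPs. In the D2 line it had 1.695, 3.15, 2.40, 1.86 and 1.06 CPM in Con, 2.53, 3.02, 2.74, 1.89 and 1.40 in Res and 2.03, 3.50, 2.61, 2.05 and 3.82 in Sus. The D1 libraries were higher, and the lowest of them, D1 Con replicate 1, lay among the highest D2 libraries. The log2 fold change was 1.41 ± 0.16 (fold 2.65, adjusted p = 7.64e-08). In the inputs *Ephb3* was at 6.82 to 12.9 CPM in D1 and 7.29 to 12.9 in D2, above every D2 IP and all but 3 D1 IPs, and it was called lower in IP than input in both lines (-0.60 ± 0.16 in D1, -2.03 ± 0.16 in D2). D1 Con replicate 1 had the lowest cortical excitatory marker sum of the D1 IPs (402 CPM) and the lowest *Ephb3*, and D1 Sus replicate 3 had the highest of both (1430 CPM, and 12.9 CPM for *Ephb3*). Without these 2 libraries, a setting chosen after seeing the data, the difference was 1.37, and every D1 IP that was left still lay above every D2 IP in the cortical marker sum.

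*Plxna1*, a plexin that binds class 3 semaphorins with a neuropilin and class 6 semaphorins directly, lies at chr6:89316314-89362620 on the minus strand (GRCm38). It had 58.0, 89.3, 82.3 and 92.6 CPM in D1 Con, 91.2, 79.9, 71.7 and 79.9 in D1 Res and 83.8, 94.5, 84.1, 81.4 and 89.9 in D1 Sus. The D2 IPs had 48.3, 47.5, 52.6, 49.4 and 48.0 CPM in Con, 47.7, 52.2, 44.1, 53.8 and 63.9 in Res and 70.4, 53.3, 57.2, 57.9 and 54.4 in Sus. All D1 libraries but Con replicate 1 lay above all D2 libraries, and the log2 fold change was 0.62 ± 0.06 (adjusted p = 4.33e-09). The inputs of both lines were at 64.5 to 103 CPM. *Plxna1* shares 970 exon bases with *Gm26811* on the opposite strand, and the counting was not stated to use strand, so reads of the pair cannot be told apart in those bases.

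*Sema5b*, a transmembrane semaphorin with thrombospondin repeats, went the other way. It had 41.0, 31.6, 25.1 and 25.8 CPM in D1 Con, 23.8, 28.6, 27.4 and 26.7 in D1 Res and 31.5, 28.7, 28.7, 30.6 and 26.7 in D1 Sus. The D2 IPs had 49.2, 52.5, 43.1, 50.6 and 47.2 CPM in Con, 40.7, 49.3, 45.5, 42.7 and 43.5 in Res and 39.9, 40.9, 49.0, 42.9 and 43.6 in Sus. D1 Con replicate 1 was again the library of its line nearest to the other line, and the remaining 12 D1 libraries lay below all D2 libraries. The log2 fold change was -0.66 ± 0.06 (adjusted p = 7.95e-11). The inputs of both lines were at 25.7 to 33.8 CPM. *Sema5b* was at 28.9 CPM in the D1 IPs and 29.0 in the D1 inputs (means, log2 fold change -0.00 ± 0.06, adjusted p = 0.947), and at 45.4 CPM in the D2 IPs and 30.2 in the D2 inputs (0.58 ± 0.06, adjusted p = 1.73e-12).

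*Robo4*, at chr9:37401897-37415115 on the plus strand, was called lower in D1 (-1.02 ± 0.35, adjusted p = 0.0188), but on 1 to 16 reads per D1 IP and 2 to 15 per D2 IP. The filter's minimum count of 10 reads was reached in several D2 IPs and, among the D1 IPs, in Sus replicate 2 alone. *Robo4* thus passed the filter through the D2 IPs, the group where it was higher, so its call supports nothing. The 2 lines overlapped over nearly their whole range, and both lay far below the inputs. The summed endothelial markers were 3.85 to 6.84 CPM in the D1 IPs and 3.15 to 9.59 CPM in the D2 IPs.

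**Figure D3:**
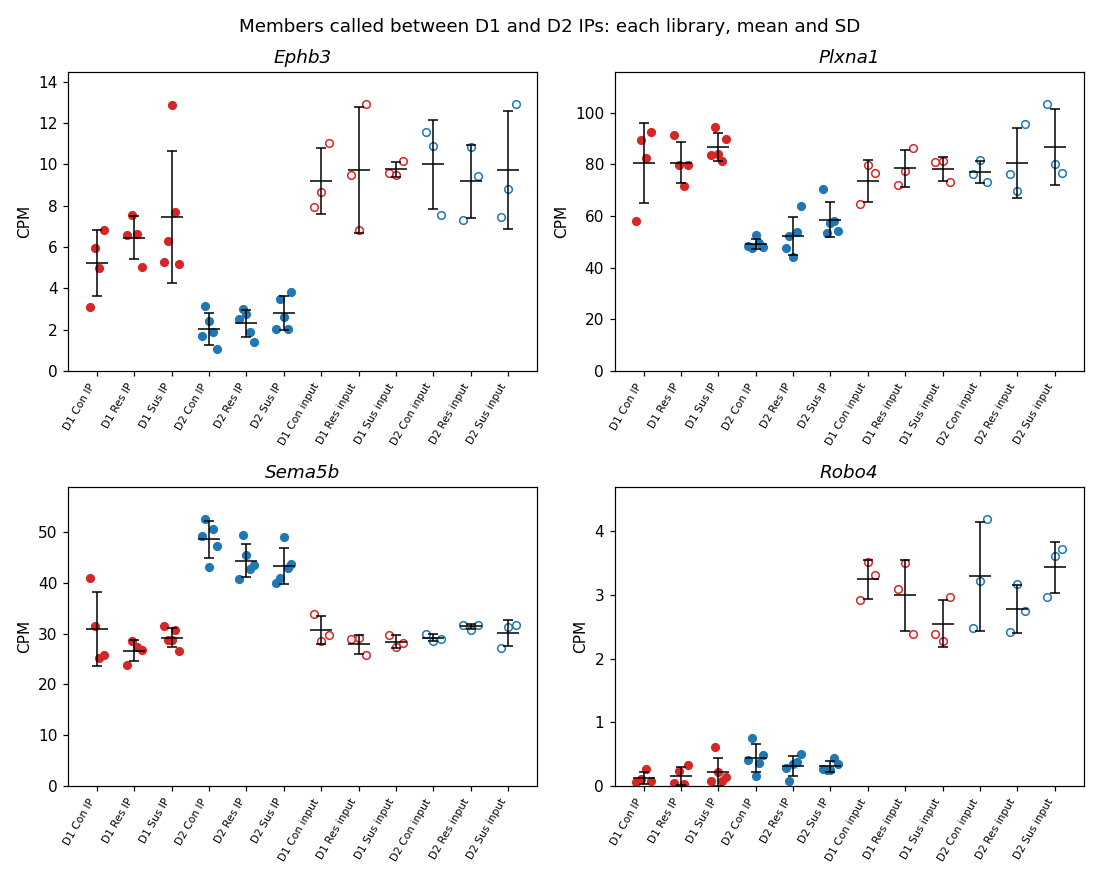
CPM of the 4 members called between D1 and D2 IPs in each library of the 12 groups (filled for IPs, open for inputs, red for D1, blue for D2), with the mean and SD of each group. *Ephb3* and *Plxna1* are higher in D1 IPs, *Sema5b* in D2 IPs, and *Robo4* is near 0 in every IP and at 2.28 to 4.19 CPM in the inputs.

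Below the fold limit, differences in both directions passed the test. Higher in D1 were *Sema7a* (0.52 ± 0.06, adjusted p = 8.27e-08), the plexin ligand *Sema6a* (0.50 ± 0.09), *Nrp2*, the co-receptor for *Sema3f* (0.44 ± 0.06), *Epha5* (0.40 ± 0.04), *Ephb6* (0.38 ± 0.05), *Sema6d* (0.36 ± 0.04), *Slit1* (0.33 ± 0.07) and *Unc5a* (0.28 ± 0.04). Higher in D2 were *Unc5d* (-0.45 ± 0.06), *Slit3* (-0.31 ± 0.08), *Efnb3* (-0.31 ± 0.03), *Sema3a* (-0.26 ± 0.07) and *Epha8*, an ephrin A receptor (-0.24 ± 0.05). *Efnb3* had the smallest adjusted p of the members (6.21e-11) for a change of 1.24-fold, since its replicates were tight. Its D1 IPs ran from 168 to 212 CPM (median 187) and its D2 IPs from 216 to 240 (median 230), with no overlap. Of the textbook pairs, *Epha4* (-0.16 ± 0.04), *Sema3e* (-0.20 ± 0.06) and *Robo1* (-0.19 ± 0.05) were slightly higher in D2 and *Plxnd1* (0.19 ± 0.04), *Efna5* (0.18 ± 0.05), *Robo2* (0.16 ± 0.04) and *Ephb1* (0.13 ± 0.04) slightly higher in D1. *Nrp1* (-0.07 ± 0.04, adjusted p = 0.174), *Plxna4* (0.05 ± 0.05, adjusted p = 0.434), *Slit2* (0.02 ± 0.04, adjusted p = 0.669), *Dcc* (-0.06 ± 0.04, adjusted p = 0.226), *Sema4d* (0.09 ± 0.05, adjusted p = 0.123), *Ntn1* (-0.12 ± 0.05, adjusted p = 0.0513) and *Ephb2* (0.16 ± 0.09, adjusted p = 0.14) did not pass.

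**Figure D4:**
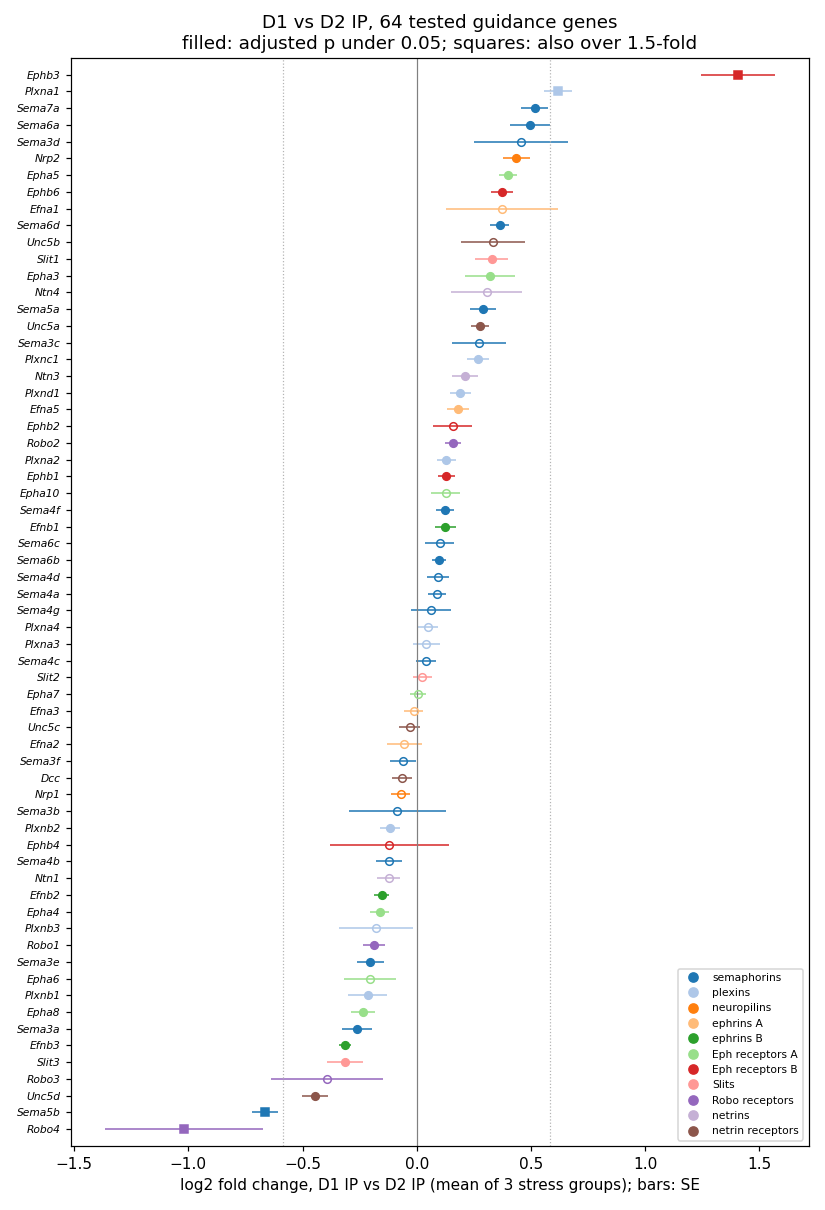
Log2 fold change between D1 and D2 IPs (mean of the 3 stress groups, bars are SE) of the 64 tested members in order, with filled points for an adjusted p under 0.05, squares for the 4 members also over 1.5-fold and dotted lines at 1.5-fold. *Ephb3* at 1.41 stands apart at the top, and *Robo4* at -1.02 has the widest bar.

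In the control libraries alone, *Ephb3* (1.35 ± 0.29, adjusted p = 0.00217), *Plxna1* (0.70 ± 0.11, adjusted p = 4.95e-05) and *Sema5b* (-0.66 ± 0.10, adjusted p = 2.19e-05) were called, 2 members higher and 1 lower, beside 3.34% and 1.51% of all genes. Without D1 Con replicate 3, *Sema5b* moved to -0.58, just under the fold limit (adjusted p = 0.00028). Among other genes of the guidance systems, over the 3 stress groups, 2 of 53 genes of receptor signalling were called higher in the D1 IPs and 0 lower, beside 4.93% and 2.69% of all genes, namely *Mical2*, an actin-oxidising enzyme of the Mical family (0.77 ± 0.08), and *Rnd1*, a small GTPase that binds plexins (0.67 ± 0.10). Of 20 other guidance proteins, 2 were called higher and 0 lower: *Ntng2*, a netrin-G anchored to the membrane (1.43 ± 0.17), and *Rgma*, a ligand of neogenin (0.72 ± 0.07). All 6 cortical excitatory markers were called in the same direction, with log2 fold changes from 1.54 to 2.32, and their part in these values was not tested.

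Against input, the signalling list split in each direction. In the D1 line 7 of its 53 genes were called higher in the IP and 9 lower, and in the D2 line 6 higher and 9 lower, against the shares of all genes given above (13.7% and 29.3% in D1, 12.8% and 30.8% in D2). *Ngef*, the exchange factor ephexin that acts downstream of EphA receptors, was the highest, at 1.47 ± 0.05 in D1 and 1.75 ± 0.05 in D2, and *Chn1*, a Rac regulator downstream of *Epha4*, was at 1.01 ± 0.06 and 0.93 ± 0.06. *Dock1*, a Rac exchange factor, was the lowest, at -3.28 ± 0.08 and -3.00 ± 0.08. Of the 20 other guidance proteins, 3 were called higher and 2 lower in D1, and 2 higher and 5 lower in D2.

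The inputs serve as a check of the tissue. No member was called between D1 and D2 inputs with edgeR or with DESeq2, beside 0.0133% higher and 0.00664% lower of all 15063 genes with edgeR. At an unadjusted p under 0.05 there were 2 of 66 members, beside 754 of the 15063 genes. These were *Nrp2* (54.8 against 61.7 CPM, log2 fold change -0.17 ± 0.07, adjusted p = 0.968) and *Ephb6* (44.2 against 40.3 CPM, 0.13 ± 0.06, adjusted p = 0.979). For *Nrp2* the input difference ran opposite to the IP difference.

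Stress was compared within each line, and here no member passed at an adjusted p under 0.05 with edgeR or DESeq2 in any of the 6 comparisons. Over all 14224 genes 0% passed in 5 of them, and 0.00703% in D1 Res vs Con. The counts at an unadjusted p under 0.05 follow as a description, beside the share of all genes that met it. The comparisons of Sus and of Res with Con in a line share the control libraries.

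In D1 Sus vs Con 8 of 64 members had p under 0.05, 6 higher and 2 lower, where 5.24% of all genes did. DESeq2 gave 9, beside 783 of 14224 genes. The count moved to 3 without D1 Con replicate 1, to 15 without D1 Con replicate 2 and to 5 without D1 Sus replicate 4. The shares of all genes in these fits are not given here. When only the D1 Sus and D1 Con IPs were fitted the count was 13, beside 898 of 13666 genes. *Plxna3*, a class A plexin that binds class 3 semaphorins with a neuropilin, had 13.8, 14.7, 17.8 and 18.9 CPM in Con and 20.3, 23.5, 19.9, 19.0 and 18.6 in Sus, overlapping at a single Con library (log2 fold change 0.31 ± 0.11, adjusted p = 0.86). *Sema4d*, the ligand of *Plxnb1*, had 24.5, 28.8, 23.5 and 27.5 CPM in Con and 28.4, 32.3, 29.1, 30.8 and 34.1 in Sus (0.24 ± 0.08, adjusted p = 0.86). *Efnb3* was lower, with 212, 187, 187 and 191 CPM in Con and 176, 177, 168, 185 and 184 in Sus, and did not overlap (-0.13 ± 0.05, adjusted p = 0.86). Its p no longer passed without D1 Con replicate 1, the highest of these libraries (-0.08). *Unc5c* (0.21 ± 0.08), *Sema6d* (0.18 ± 0.08), *Robo3* (0.94 ± 0.45, on 4 to 26 reads) and *Sema4c* (0.16 ± 0.08) were the other 4 with higher values and *Efnb2* (-0.13 ± 0.06) the other with lower. The median over the members was 0.09, against -0.00 over all genes. The D1 Con library that stood out in these values, replicate 1, also had the highest summed level of 6 MSN markers of the D1 IPs (6670 CPM, the others 4360 to 5850).

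In D1 Res vs Con 2 members had p under 0.05, where 2.05% of all genes did. *Ephb4* had 9, 3, 2 and 6 reads in Con and 9, 10, 10 and 10 in Res, a difference of few reads (1.07 ± 0.49, adjusted p = 1). *Sema5b* was at 30.9 ± 7.33 CPM (SD, n = 4) in Con and 26.6 ± 2.06 in Res (-0.21 ± 0.10), and at -0.04 without D1 Con replicate 1. *Efnb2*, next in order, did not pass (-0.12 ± 0.06). In D1 Sus vs Res *Nrp2* alone had p under 0.05, where 4.08% of all genes did. It had 78.0, 82.8, 67.7 and 71.5 CPM in Res and 91.5, 79.2, 88.2, 92.3 and 99.2 in Sus (0.26 ± 0.11, adjusted p = 1), and D1 Sus replicate 2 lay within the Res range. *Sema4d* (0.17 ± 0.09) and *Epha8* (-0.18 ± 0.09) followed.

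In D2 Sus vs Con 5 members had p under 0.05, 3 higher and 2 lower, where 3.60% of all genes did. *Sema4c*, a ligand of plexin B receptors, had 17.4, 20.1, 18.2, 16.4 and 17.1 CPM in Con and 15.3, 17.6, 13.2, 15.9 and 14.3 in Sus, with overlap (-0.23 ± 0.07, adjusted p = 1). *Plxna1* was at 49.2 ± 2.04 CPM (SD, n = 5) in Con and 58.6 ± 6.87 in Sus with no overlap (0.26 ± 0.10, adjusted p = 1), and did not pass without D2 Sus replicate 1, its highest library (0.18). *Sema4d* was higher by 0.18 ± 0.08 (adjusted p = 1), *Ephb2* by 0.29 ± 0.14, and *Ephb1* was lower, at -0.13 ± 0.06. The count was 10 without D2 Con replicate 3 and 3 without D2 Con replicate 4 or 5. The shares of all genes in these fits are not given here. In D2 Res vs Con 2 members had p under 0.05, where 2.94% of all genes did, *Sema4c* (-0.18 ± 0.07) and *Ephb4* (0.93 ± 0.44, on 3 to 15 reads), and *Sema4b* followed (0.19 ± 0.10). In D2 Sus vs Res 2 had p under 0.05, where 1.62% of all genes did, and both are EphA receptors. *Epha8* had 19.8, 20.2, 21.9, 19.0 and 19.0 CPM in Res and 20.1, 22.8, 27.0, 23.6 and 25.3 in Sus (0.25 ± 0.08, adjusted p = 1). *Epha10*, an EphA receptor with an inactive kinase domain, was higher by 0.26 ± 0.10 (adjusted p = 1). *Ntn4* was next (0.51 ± 0.26).

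**Figure D5:**
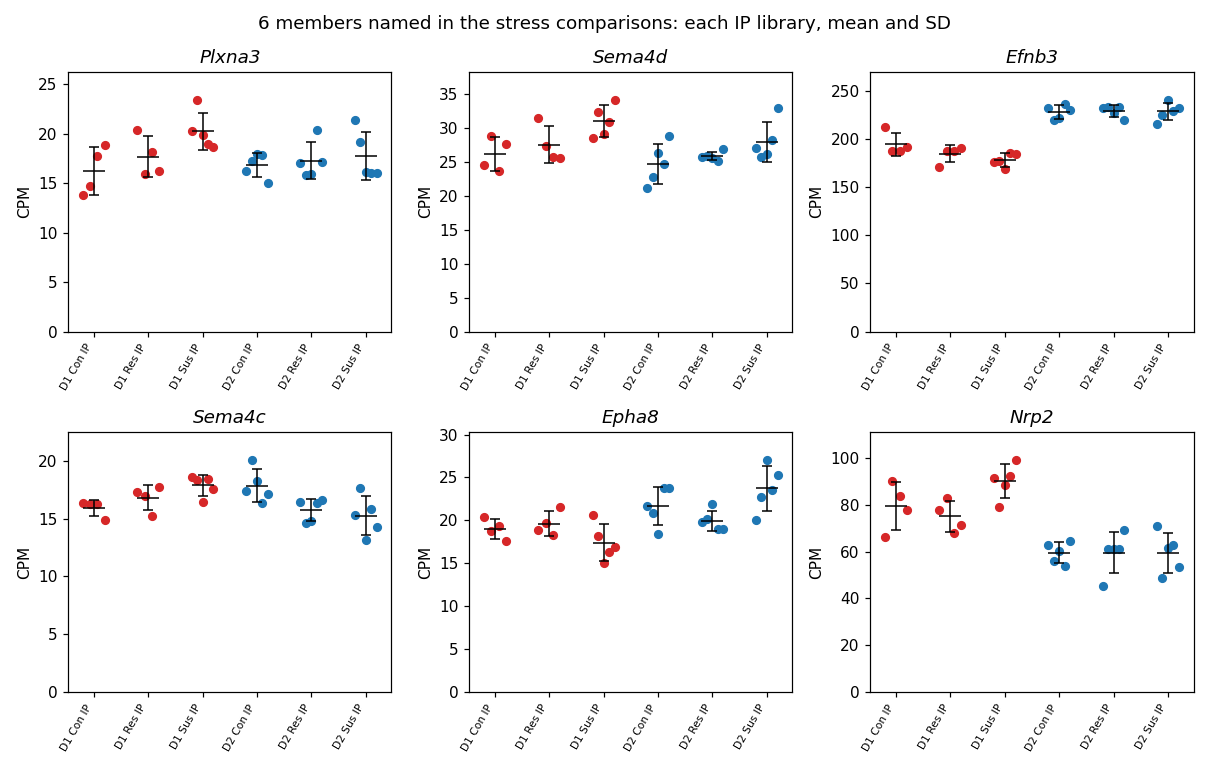
CPM in each IP library of 6 members named in the stress comparisons, by line and stress group (red D1, blue D2), with the mean and SD of each group and axes from 0. The shifts between Con, Res and Sus are small against the axis, *Efnb3* and *Nrp2* differ more between the lines than between stress groups, and *Sema4c* lies lower in D2 Res and Sus than in D2 Con but not in D1.

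The difference between the lines in their response to stress was tested as an interaction, in which no member passed at an adjusted p under 0.05 with edgeR or DESeq2. At an unadjusted p under 0.05 there were 4 members for Sus vs Con, where 1.74% of all genes met it, 1 for Res vs Con (2.31%) and 1 for Sus vs Res (1.95%). *Sema4c* had the largest contrast of the 4 for Sus vs Con, 0.39 ± 0.11 (adjusted p = 1), being higher in Sus than Con in D1 (17.9 against 16.0 CPM) and lower in D2 (15.3 against 17.9 CPM). It was also the member for Res vs Con (0.25 ± 0.11). *Epha8* was the member for Sus vs Res (-0.43 ± 0.12, adjusted p = 1), lower in Sus than Res in D1 (17.4 against 19.6 CPM) and higher in D2 (23.8 against 19.95 CPM). *Sema4c* shares 334 exon bases with an opposite-strand transcript. The other 3 for Sus vs Con were *Sema7a* (0.35 ± 0.15), *Efnb3* (-0.14 ± 0.06) and *Epha8* (-0.26 ± 0.12).

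In the inputs of both lines together, no member passed at an adjusted p under 0.05 for stress with edgeR or DESeq2, and 4, 2 and 3 of 66 had an unadjusted p under 0.05 for Sus vs Con, Res vs Con and Sus vs Res, where 4.38%, 3.18% and 5.28% of all genes did. For Sus vs Con these were *Epha2* (-0.77 ± 0.29, at 0.513 against 0.875 CPM), *Sema4f* (0.13 ± 0.05), *Epha6* (0.16 ± 0.07) and *Efna1* (-0.56 ± 0.24). For Res vs Con they were *Epha2* (-0.85 ± 0.29) and *Ephb6* (0.21 ± 0.07), and for Sus vs Res *Sema6b* (-0.10 ± 0.04), *Ephb6* (-0.16 ± 0.07) and *Sema6d* (0.13 ± 0.06). The signalling list had 4 of 53 genes with p under 0.05 in D1 IPs for Sus vs Con and 0 to 3 in the other comparisons of IPs within a line.

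The last comparison set the 4 libraries labelled Sirt1-KO against the 4 D1 Con IPs, on CPM scaled over these 8 libraries. *Sirt1*, the deacetylase gene floxed in these mice, had 15.2, 16.2, 13.2 and 10.2 CPM in the libraries labelled Sirt1-KO and 13.1, 16.6, 14.8 and 14.4 in D1 Con. The log2 difference was -0.12, with p = 0.629 in a two-sided exact permutation test of 70 arrangements, whose smallest possible p is 0.0286. Reads outside the floxed part would not show its loss, and the part deleted was not looked at here. The Sirt1-KO libraries were deposited later than the D1 Con libraries, so genotype and submission cannot be told apart.

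No member was called in the libraries labelled Sirt1-KO by edgeR at over 1.5-fold, beside 0.22% higher and 0.484% lower of all 13626 genes tested. DESeq2 called 4 members, beside 223 of all 13626 genes. At an unadjusted p under 0.05 there were 18 of 62 members, where 16.6% of all genes met it. At an adjusted p under 0.05 with no limit on the fold, DESeq2 gave 10 members, beside 741 of 13626 genes. The replicate number as a block gave 22, beside 1671 of 13626. D1 Con replicate 2 and Sirt1-KO replicate 5 had no same-numbered partner, so they did not inform the difference in that fit. No filter on low counts gave 5, beside 365 of 18585. With edgeR *Dcc* alone had an adjusted p under 0.05, beside 245 of 13626 genes. The netrin receptor was at 60.8, 61.2, 59.8 and 74.8 CPM in the libraries labelled Sirt1-KO and at 82.9, 74.5, 80.7 and 85.6 in D1 Con (-0.34 ± 0.08, adjusted p = 0.0485), with replicate 5 of the former reaching the lowest control. *Efna1*, an ephrin A ligand, had 1.23, 1.23, 1.30 and 0.604 CPM against 0.405, 0.220, 0.581 and 0.412, without overlap (1.43 ± 0.36, adjusted p = 0.0605). *Plxnd1* had 94.7, 100.7, 108 and 116 CPM against 149, 121, 136 and 120, also without overlap (-0.33 ± 0.08, adjusted p = 0.062).

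Among the other members with p under 0.05, the receptors *Unc5a* (0.35 ± 0.09), *Nrp1* (0.26 ± 0.07) and *Ephb3* (1.06 ± 0.31) and the ligands *Sema4d* (0.31 ± 0.08), *Ntn4* (0.95 ± 0.26) and *Slit1* (0.57 ± 0.15) were higher in the libraries labelled Sirt1-KO and the ligand *Sema3d* (-0.81 ± 0.21) lower, with adjusted p from 0.0691 to 0.134. DESeq2 called *Efna1*, *Ephb3*, *Ntn4* and *Sema3d*. *Ephb3* had 10.0, 12.5, 13.1 and 5.35 CPM against 2.94, 5.64, 4.74 and 6.48. The summed cortical excitatory markers were 855 to 1610 CPM (median 1390) in the libraries labelled Sirt1-KO and 380 to 1040 CPM (median 709) in D1 Con, with log2 fold changes of 0.73 to 0.99 for the 6 markers, none of which had an adjusted p under 0.05. The sums of some other lists did not overlap. D1-MSN markers were at 896 to 1120 CPM against 1190 to 1470 in D1 Con, and cholinergic markers at 4.13 to 8.51 against 10.1 to 11.5. Somatostatin and parvalbumin interneuron markers were at 139 to 166 CPM against at most 133, and choroid plexus markers at 6.73 to 8.18 against 8.49 to 11.6. Their part in the values of the members was not tested. Of the signalling list, *Mical2* was called higher (0.84 ± 0.15, adjusted p = 0.0301) and *Vav3*, which acts downstream of Eph receptors, lower (-0.94 ± 0.15, adjusted p = 0.00999).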

How the data were processed

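The deposited values were raw whole-number counts of reads per gene, made by the authors per the labels and the study's methods with cutadapt, STAR alignment to mm10 and, for the main table, HTSeq. The counter of the Sirt1-KO table and the strand setting are not given in the sources used here. RNA was poly-A selected with a stranded kit, and libraries were run in 4 sets that the labels do not assign. Entries that name no gene took 18 to 40% of counts and were left out. There were 2 columns that matched no sample label and were not used.

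Groups came from the labels. The members, gene lists and tests were chosen with earlier results of these data known. Genes passing edgeR's filter (minimum count 10, minimum total 15) were fitted with the robust quasi-likelihood test (edgeR 4.0.16, R 4.3.3) after TMM scaling, with Benjamini-Hochberg adjustment over all genes tested. IPs with inputs (46 libraries), IPs (28), inputs (18) and Sirt1-KO with D1 Con (8) were fitted separately. Errors of fold changes are SE, with SE taken as the log2 fold change over the root of F. Levels are CPM, or CPM per kb of exon (GENCODE annotation of GRCm38). Named were members called between D1 and D2 IPs, the top 8 each way in IP against input, those with the 3 lowest p per stress comparison and in Sirt1-KO, the 10 highest per kb, those under the filter and textbook pairs.

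By their titles and the extraction protocol, same-numbered IP and input came from the same homogenate. Their deviations from the group means correlated between -0.193 and 0.506 over 18 pairs, over 0.1 in 3, and 5 IPs matched their own number best, so the counts show little of this pairing. No libraries were duplicates. The labels do not say which libraries share animals beyond this, and each library pooled 2 mice, so p-values measure the spread between pools. Alternatives were RLE factors, no filter, DESeq2 1.42.0, leaving out libraries, a replicate block, control libraries only and other call rules. The fitting code was tested on simulated data. Promoters came from RefSeq (1 entry each for *Ephb3* and *Sema5b*).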

Additional observations from a re-analysis of the deposited data

Results flagged for a closer look

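Among 18 members and 126 groups of 4 or 5 libraries, 11 groups held a library far from the rest by Dixon's test, where chance gives about 1 in 20. In the libraries labelled Sirt1-KO, replicate 5 stood apart for *Dcc* (74.8 CPM, the others 59.8 to 61.2), *Efna1* (0.604, the others 1.23 to 1.30) and *Efnb3* (217, the others 167 to 172), and replicate 1 for *Plxna1* (71.6, the others 79.8 to 80.6). In D1 Con, replicate 1 was low for *Epha10* (21.3, the others 29.2 to 30.6) and replicate 4 for *Sema4c* (14.9, the others at 16.3). D1 Res replicate 1 was low for *Efnb3* (171, the others 187 to 191) and D1 Sus replicate 2 high for *Robo4* (0.611, the others 0.0772 to 0.220). In D2 Res, replicate 1 was low for *Dcc* (75.5, the others 88.5 to 93.0) and replicate 5 high for *Epha10* (32.3, the others 22.6 to 23.6). D2 Sus replicate 1 was high for *Plxna1* (70.4, the others 53.3 to 57.9).

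The IP to input log2 ratio differed between D1 and D2 for 6 members by edgeR's interaction test, by 1.43 for *Ephb3*, 0.72 for *Plxna1*, 0.62 for *Nrp2*, 0.61 for *Sema6a*, 0.59 for *Sema7a* and -0.59 for *Sema5b*. The difference for *Sema7a* fell under the fold limit in 36 of 46 fits that left out 1 library, and with RLE factors, DESeq2 and no filter on low counts, and that for *Sema6a* in 18 of 46.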

How the results depend on the processing

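Over 65 pairs of a member and a comparison, 1549 of 1683 recomputed values kept their direction and their side of the threshold and 134 fell below it, and 45 pairs never lost the call. The pairs include IP vs input for *Epha2* and *Sema3g* in both lines and D1 vs D2 IPs for *Robo4*. Those calls support nothing, however often they were kept. With an adjusted p under 0.05 and no limit on the fold, the members passing were 60 for IP vs input in each line and 35 for D1 vs D2 IPs. They were 25 for the ratio (3911 of all 15404 genes), 14 in controls (1954 of 14224) and 1 for Sirt1-KO (245 of 13626). With the adjusted p in place of the unadjusted one, all stress, interaction and input stress counts were 0. The ratio gave 3 in control libraries only (400 of 14922 genes). With only the libraries compared, the counts were 13 for D1 Sus vs Con (898 of 13666) and 1 for D1 Res vs Con (284 of 13588). They were 6 for D1 Sus vs Res (687 of 13653) and 1 for D2 Res vs Con (333 of 13501). The interaction of Sus vs Con gave 2 (230 of 14041). With all genes of at least 1 count they were 3 for D1 Sus vs Res (732 of 19716) and 1 for D2 Res vs Con (605 of 19716). In that setting the interaction of Sus vs Res gave 2 (500 of 19716) and Sirt1-KO 2 (133 of 18585). DESeq2 gave 1 for D2 Res vs Con (434 of 14224) and 4 for Sirt1-KO (223 of 13626).

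The replicate block gave 1 for D2 Res vs Con (675 of 14224 genes) and 4 for the ratio (1059 of 15404). It gave 31 for IP vs input in D1 (6698 of 15404) and 32 in D2 (6814 of 15404). For Sirt1-KO it gave 4 (*Efna1*, *Ephb3*, *Ntn4*, *Slit1*), beside 567 of 13626 genes. D1 Con replicate 2 and Sirt1-KO replicate 5, with no same-numbered partner, did not inform that difference. IPs of different groups with the same number correlated between -0.157 and 0.252 (median 0.055, against -0.0145 for different numbers). Sirt1-KO correlated with D1 Con of the same number between -0.00822 and 0.0774. The labels do not say whether such libraries share more than a number. The causes of these changes were not tested.

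Leaving out 1 library at a time, the counts ran from 28 to 31 (IP vs input, D1), 31 to 33 (D2), 3 to 6 (ratio), 4 to 5 (D1 vs D2 IPs), 3 to 4 (controls), 3 to 15 (D1 Sus vs Con), 0 to 3 (D1 Res vs Con), 1 to 4 (D1 Sus vs Res), 3 to 10 (D2 Sus vs Con), 0 to 3 (D2 Res vs Con), 1 to 4 (D2 Sus vs Res), 1 to 5, 0 to 3 and 1 to 3 (interactions of Sus vs Con, Res vs Con and Sus vs Res), 0 to 0 (D1 vs D2 inputs), 2 to 9, 2 to 4 and 0 to 8 (inputs, in the same order) and 0 to 2 (Sirt1-KO, 2 without Sirt1-KO replicate 5). The shares of all genes in these fits are not given here, so these counts alone do not show whether the members moved apart from all genes. The *Sirt1* difference ran from -0.206 to 0.0148 and turned positive (0.0148) without Sirt1-KO replicate 5. Members at a few reads per library (*Robo4*, *Ephb4*, *Robo3*, *Epha2*) are limited by depth.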
